A study of Mus musculus with 24 samples.

Results

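SINEs (short interspersed elements) are short non-coding retrotransposons, and the 35 SINE subfamilies counted in RNA-seq of mouse embryonic stem cells are described here before and after induction of the transcription factor DUX. The members are the entries of class SINE in the deposited count tables, where each repeat is named by its subfamily, family and class. They number 35 of 1146 repeat subfamilies, in tables that also hold 55487 genes. The family named Alu in the tables has 16 members (the mouse B1 and PB1 subfamilies and FAM), B2 has 5, B4 has 4, MIR has 4, ID has 4 and Deu has 2. One further entry, MER131, is of the uncertain class written with a question mark and was not included.

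All 24 libraries came from KH2 embryonic stem cells with a DUX transgene under a promoter that answers to doxycycline (TRE_DUX in the titles), controls included. Doxycycline (DOX) switches the transgene on and was given for 16 h, and each of 6 lines was sampled without and with it in 2 libraries. A first set of 8 libraries holds the WT line and the line labelled DUXBL-KO. A second set of 16 libraries, marked pLV2 in the titles, holds 2 WT lines (line 1 and line 2), the line labelled TRIM24-KO and TRIM33-KO. What pLV2 means, and which of the WT lines goes with which knockout, the labels do not say, so the average of the WT lines served as reference for each pLV2 knockout. Nothing in the labels says that the 2 libraries of a group came from separate cultures, so the p-values measure the spread between these libraries, which may be technical, and each line may be 1 clone. The labels name growth on gelatin or on mouse fibroblast feeder cells, without saying which libraries had which.

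SINEs encode no protein and are copied with the enzymes of LINE-1 elements. B1 derives from the RNA of the signal recognition particle, whereas B2, ID and the much older MIR elements derive from transfer RNA genes, and B4 elements join ID-like and B1-like parts. Mouse B1 and B2 copies carry an internal promoter for RNA polymerase III made of an A box and a B box. Many copies also lie inside introns and untranslated regions of genes read by RNA polymerase II. A count per subfamily sums both sources, which cannot be told apart in these tables. DUX is a homeobox factor of the early mouse embryo, and its expression in embryonic stem cells switches on genes and MERVL endogenous retroviruses of the 2-cell stage.

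The internal promoter that gives ID-type elements their polymerase III transcription is shown by the Bc1 gene, the founder of the mouse ID family and a neuronal polymerase III transcript. Its annotated transcript (GENCODE M21, GRCm38, chromosome 7, 144914470 to 144914637, plus strand, a non-coding gene of its own) is 168 bases long. Capitals mark the A box from base 14 and the B box from base 57, as found with the textbook forms of both motifs.
Bc1: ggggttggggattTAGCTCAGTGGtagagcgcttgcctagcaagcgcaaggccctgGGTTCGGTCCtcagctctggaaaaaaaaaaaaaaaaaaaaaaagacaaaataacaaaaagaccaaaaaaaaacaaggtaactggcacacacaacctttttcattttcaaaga
Both strands of annotated transcripts of 150 to 350 bases were searched for the same motifs. The B box was found in 93 of 8148 of them (1.14%) and the A box in 13 (0.16%), and a match describes letters, not a working promoter. Bc1 was read at 15.8 to 88.6 CPM over the 24 libraries and did not pass the test for DOX in any line relative to gene counts. Relative to all counts, it passed as lower in the line labelled TRIM24-KO (log2 -0.67) and in TRIM33-KO (-0.64). Without DOX it was higher in the line labelled TRIM24-KO than in the WT pLV2 lines, by log2 1.81 (adjusted p = 2.34e-07). The subfamily counts sum many copies across the genome, so no single sequence stands for a subfamily in these data.

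Each library held 11784696 to 19136869 counts for genes. SINE subfamilies held from 2.84% of all counts (95% Wilson interval 2.84% to 2.85%, which covers counting error only) to 5.85%. The Dux gene (Duxf3) had 0 to 2 counts in each library without DOX and 20 to 110 with DOX, following the titles; the treatment field of 8 pLV2 libraries differs from the title, and the titles were used. The 10 markers of 2-cell-like cells all rose with DOX in every line, with a summed level of 0.243 to 7.75 CPM without DOX and 847 to 8576 CPM with it. The pluripotency markers, none of them at 0, summed to 4301 to 5704 CPM without DOX and 3735 to 5451 CPM with it. Trim33 was lower in TRIM33-KO than in WT by a log2 difference of -2.61 ± 0.07 (SE, adjusted p = 6.28e-13), but Trim24 (-0.03, adjusted p = 0.830) and Duxbl1 (-0.84 ± 0.97, adjusted p = 0.847) were not measurably lower in the libraries labelled TRIM24-KO and DUXBL-KO, and a deletion that leaves the transcript readable would not show. In 2 libraries with DOX, replicate 2 of the line labelled TRIM24-KO and of TRIM33-KO, 1 gene (CT010467.1) took 30.4% and 12.9% of gene counts against at most 1.30% elsewhere.

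Relative to gene counts, SINE subfamilies rose with DOX in all 4 pLV2 lines and none fell, whereas relative to all counts, with repeats in the total, few rose and 5 calls were lower. The mouse-named entries B2_Mm1a and B2_Mm1t rose in all 4 lines on both scales. Levels are counts scaled to the effective gene library size (CPM), and differences are log2 fold changes of DOX against no DOX from edgeR's quasi-likelihood test, called at a Benjamini-Hochberg adjusted p under 0.05 over all genes and repeats. TRIM33-KO had 34 of 35 members called higher, against 75.6% of all repeat subfamilies tested there. WT pLV2 line 1 had 28 of 35 (all repeats 54.2%), line 2 had 27 (68.6%) and the line labelled TRIM24-KO had 10 (49.3%). Scaled to all counts, with no other normalization factor, the counts called higher were 8 in TRIM33-KO (all repeats 51.7%), 2 in line 1 (30.7%), 8 in line 2 (47%) and 2 in the line labelled TRIM24-KO (26.2%). On that scale PB1, PB1D7, PB1D9 and PB1D10 fell in the line labelled TRIM24-KO (all repeats 6.32% lower) and AmnSINE1 fell in TRIM33-KO (5.7%). Replicate 2 with DOX of either line is rich in the transcript CT010467.1, which enters that total. Without these 2 libraries, a lone library with DOX in each line being assumed to vary like the other groups, the counts on that scale were 4 higher and 3 lower in the line labelled TRIM24-KO (all repeats 29.9% and 1.92%) and 7 higher and 6 lower in TRIM33-KO (55.9% and 4.55%). PB1 then fell by 0.32 in the line labelled TRIM24-KO, against 0.54 with all libraries, and PB1D9 and PB1D10 were not called there. In the first set, 0 of 35 were called in WT (all repeats 5.1%) and 0 in the line labelled DUXBL-KO (18.2%). At an unadjusted p under 0.05 these counts were 1 and 6, and by DESeq2 0 and 3, and scaled to all counts 0 and 0 (all repeats 4.69% and 15.1%).

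The median log2 fold change of the 35 members was -0.03 in WT, 0.06 in the line labelled DUXBL-KO, 0.27 in WT pLV2 line 1, 0.27 in line 2, 0.13 in the line labelled TRIM24-KO and 0.48 in TRIM33-KO. The medians of all repeat subfamilies in the same order were 0.20, 0.32, 0.59, 0.95, 0.56 and 1.21, and those of genes lay between -0.09 and -0.00. Scaled to all counts, the medians of the 35 members were -0.13, -0.09, 0.12, -0.04, -0.40 and -0.11, of which the last pair became -0.14 and -0.01 without the 2 libraries rich in CT010467.1. Leaving out single libraries moved the median of the line labelled DUXBL-KO from -0.14, without its replicate 1 without DOX, to 0.19, without its replicate 2 without DOX, and that of WT reached 0.02 without its replicate 1 with DOX. Both libraries with DOX were above both without it for 6, 7, 33, 35, 20 and 35 members in that order, against 47.6%, 48.9%, 71.3%, 74.5%, 62.4% and 77.1% of repeat subfamilies with any count. In bulk RNA, more cells of a type and more RNA per cell cannot be told apart. The counts in single lines depended on single libraries. Leaving out 1 of the 4 libraries of line 1 gave 11 to 18 calls, with 11 lacking its replicate 1 with DOX. Line 2 had 15 without its replicate 1 with DOX, and the line labelled TRIM24-KO had 6 without its replicate 2 of either treatment.

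**Figure D1:**
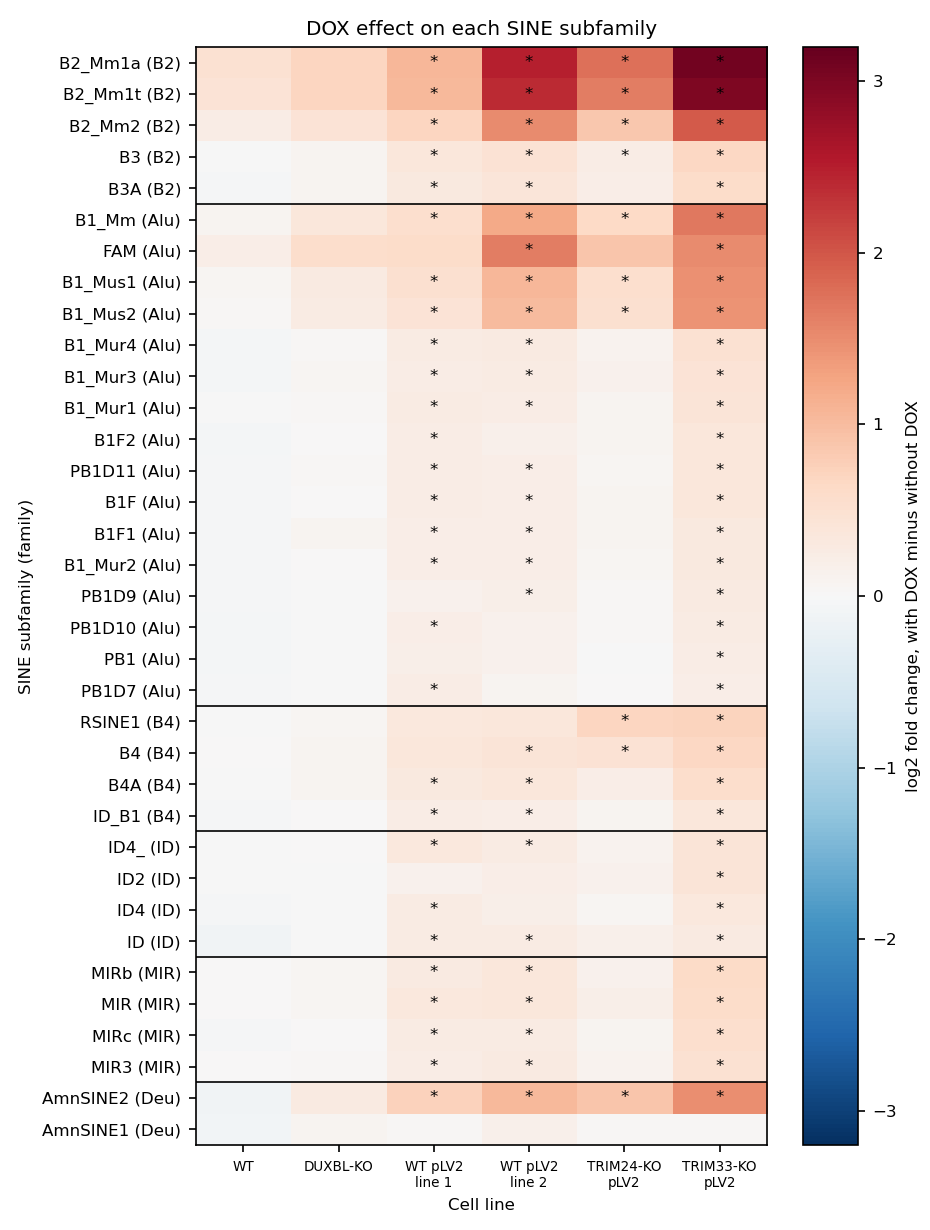
Fitted log2 fold change of DOX against no DOX for each of the 35 SINE subfamilies (vertical, grouped by family) in each of 6 lines (horizontal), from 2 libraries a group, with stars where the adjusted p is under 0.05. In the pLV2 columns, the B2_Mm entries, B1_Mm and B1_Mus are the most strongly coloured of the well-counted subfamilies, up to 3.10 for B2_Mm1a in TRIM33-KO. RSINE1 in the line labelled TRIM24-KO (0.68), above B1_Mm and B1_Mus there, is an exception. Values are relative to gene counts, and the 2 left columns hold no star.

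B2_Mm1a rose most in the pLV2 lines. It is one of the mouse-named subfamilies of B2, a transfer-RNA-derived family, and it had the highest fold change of any member with at least 50 counts on average in each of the 6 lines. In TRIM33-KO it stood at 1948 and 1808 CPM without DOX and 15074 and 17078 CPM with DOX, a log2 fold change of 3.10 ± 0.18 (SE, adjusted p = 2.50e-10), or 8.56-fold. In WT pLV2 line 2 it stood at 1770.2 and 1934 CPM without DOX and 11718 and 8949 CPM with DOX (2.48 ± 0.17, adjusted p = 4.83e-09). Libraries with DOX were several times above those without it in both lines, with no overlap. The line labelled TRIM24-KO had 2483 and 1699.7 CPM without DOX and 6418 and 7773 CPM with DOX (1.76 ± 0.17, adjusted p = 3.87e-07). In WT pLV2 line 1 they were 2366 and 1828 CPM without DOX and 4119 and 4664 CPM with DOX (1.07 ± 0.16, adjusted p = 1.37e-04). The groups were again apart, at a smaller distance in line 1.

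In the first set B2_Mm1a did not pass the test. The WT libraries were at 4573 and 3072 CPM without DOX and 6178 and 4451 CPM with DOX (0.48 ± 0.21, adjusted p = 0.469), and the ranges overlapped. The libraries labelled DUXBL-KO were at 5703 and 5317 CPM without DOX and 9319.8 and 8413 CPM with DOX (0.69 ± 0.21, adjusted p = 0.153), and here the groups did not overlap. Among all repeat subfamilies ordered by fold change, B2_Mm1a was at place 283 and 292 of 981 in these lines. In the pLV2 lines it was at place 267 (line 1), 114 (line 2), 128 (labelled TRIM24-KO) and 94 (TRIM33-KO) of 965.

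B2_Mm1t and B2_Mm2, the remaining mouse-named B2 entries, rose in the same 4 pLV2 lines. The log2 fold changes of B2_Mm1t were 1.03, 2.39, 1.64 and 2.99 in line 1, line 2, the line labelled TRIM24-KO and TRIM33-KO. Those of B2_Mm2 were 0.70, 1.52, 0.85 and 1.96. B2_Mm2 lay at 2489 to 2819 CPM over the 8 pLV2 libraries without DOX and at 4139.8 to 11457 CPM over the 8 with it, with no overlap between the ranges. B2_Mm1a and B2_Mm1t stayed called in the 4 pLV2 lines under every alternative run, and B2_Mm2 under every one but scaling to all counts, where it was 0.55 in line 1 (adjusted p = 0.0637) and 0.32 in the line labelled TRIM24-KO (adjusted p = 0.160; 0.51 and called without the library rich in CT010467.1). In WT and the line labelled DUXBL-KO, the values were 0.43 and 0.68 for B2_Mm1t and 0.23 and 0.43 for B2_Mm2, none of them called.

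B3 and B3A are older branches of the B2 family, and their changes were smaller. B3 stood at 3636 and 3779.7 CPM without DOX and 5806 and 6002 CPM with DOX in TRIM33-KO (0.67 ± 0.07, adjusted p = 1.31e-06) and at 3628 and 3466 CPM without DOX and 4974 and 4728 CPM with DOX in line 2 (0.45 ± 0.07, adjusted p = 1.49e-04). It rose in line 1 as well (3085 and 3034 CPM without DOX and 3958 and 3898 CPM with DOX, log2 0.36). In the line labelled TRIM24-KO, at 3722 and 3731 CPM without DOX and 3994 and 4745 CPM with DOX (log2 0.23, adjusted p = 0.0367), it was no longer called without any one of its 2 libraries without DOX or its replicate 2 with DOX, and the value without the last was 0.11. Relative to all counts, B3 was -0.30 there, and -0.099 without replicate 2 with DOX. The WT libraries, at 5072 and 5132 CPM without DOX and 4973 and 5130.5 CPM with DOX, overlapped. B3A rose by 0.31, 0.39 and 0.59 in line 1, line 2 and TRIM33-KO and was not called in the line labelled TRIM24-KO (0.21). Scaled to all counts, neither B3 nor B3A was called in any line. B3A in TRIM33-KO was then -0.0063, and 0.048 without the library rich in CT010467.1.

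The ratio of B2_Mm1a to B3 counts within a library needs no scaling between libraries. In TRIM33-KO it was 0.536 and 0.478 without DOX and 2.60 and 2.85 with DOX. In line 2 it was 0.488 and 0.558 without DOX and 2.36 and 1.89 with DOX, and in the line labelled TRIM24-KO 0.667 and 0.456 without DOX and 1.61 and 1.64 with DOX. Both libraries with DOX were above both without it in each of these lines. Line 1 had 0.767 and 0.602 without DOX and 1.04 and 1.20 with DOX, also apart. WT, with 0.902 and 0.599 without DOX and 1.24 and 0.868 with DOX, overlapped, whereas the line labelled DUXBL-KO, with 1.23 and 0.910 without DOX and 1.67 and 1.51 with DOX, did not. The 2 subfamilies of 1 family thus changed unequally within the same libraries. The ratio of MIR to B3, for contrast, stayed between 0.129 and 0.156 in the 12 group means.

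**Figure D2:**
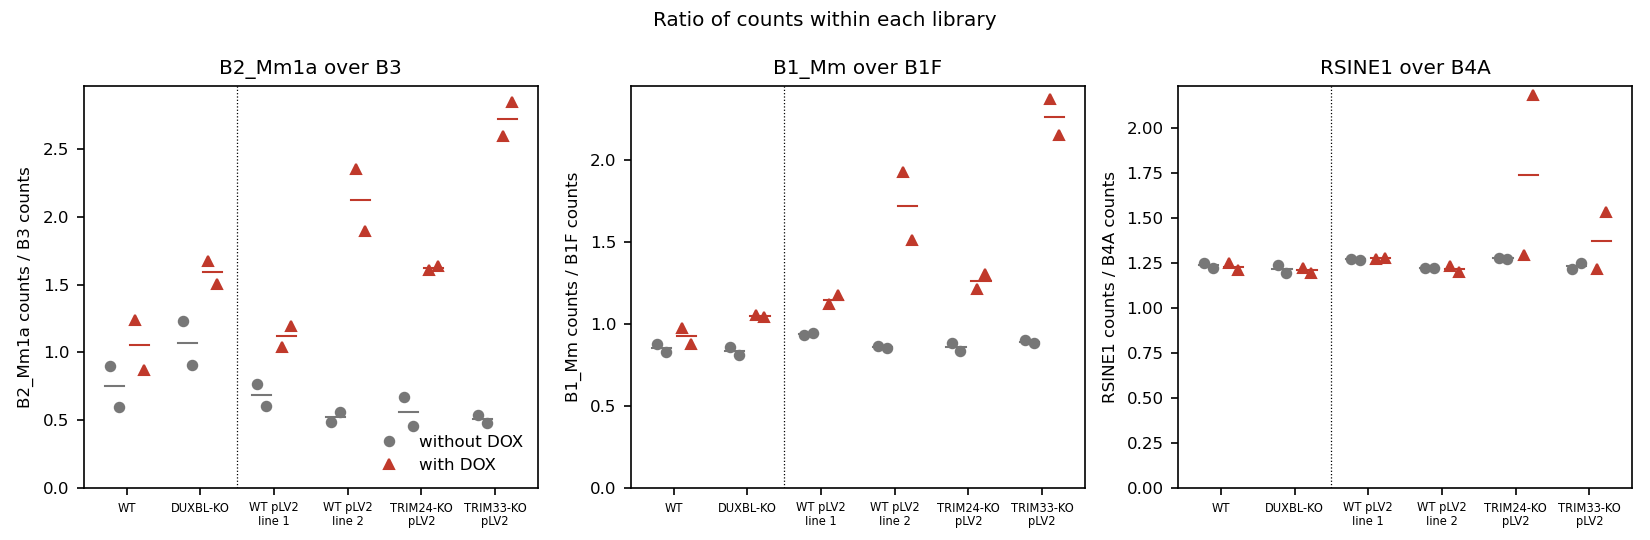
Ratio of counts within each library for 3 pairs of SINE subfamilies (vertical), by line (horizontal), with grey dots for the 2 libraries without DOX, red triangles for the 2 with DOX and bars for group means. B2_Mm1a to B3 reached a mean of 2.72 in TRIM33-KO with DOX, B1_Mm to B1F a mean of 2.26, and RSINE1 to B4A left its range of 1.20 to 1.29 in 2 libraries with DOX.

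Within the Alu family, the mouse-named subfamilies B1_Mm, B1_Mus1 and B1_Mus2 rose most apart from the sparsely counted FAM. B1_Mm stood at 739.8 and 707 CPM without DOX and 2511 and 2179.9 CPM with DOX in TRIM33-KO (1.70 ± 0.11, adjusted p = 1.43e-09) and at 745 and 687 CPM without DOX and 1862 and 1463 CPM with DOX in line 2 (1.22 ± 0.11, adjusted p = 1.36e-07). It also rose in line 1, at 647 and 634 CPM without DOX and 921 and 938 CPM with DOX (0.54 ± 0.11), and in the line labelled TRIM24-KO, at 728 and 679 CPM without DOX and 996 and 1200.2 CPM with DOX (0.64 ± 0.11). Libraries with DOX were above those without it in all 4. In WT, at 1033 and 1016 CPM without DOX and 1114 and 1065 CPM with DOX, the log2 fold change was 0.09 and in the line labelled DUXBL-KO, at 949 and 1146 CPM without DOX and 1324 and 1355 CPM with DOX, it was 0.36, neither of them called.

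B1_Mus1 and B1_Mus2, the best-counted B1 subfamilies, followed B1_Mm at a smaller size. B1_Mus1 lay at 1655 to 1958 CPM over the 8 pLV2 libraries without DOX and at 2376 to 5462 CPM with it, and rose by 0.52, 1.05, 0.53 and 1.46 in line 1, line 2, the line labelled TRIM24-KO and TRIM33-KO. B1_Mus2 lay at 1287 to 1523 CPM without DOX and 1758 to 4293 CPM with it, and rose by 0.45, 1.02, 0.50 and 1.43. B1_Mm, B1_Mus1 and B1_Mus2 stayed called in these 4 lines under every alternative run but scaling to all counts. On that scale they were 0.39, 0.38 and 0.30 in line 1 and 0.11, 0.0062 and -0.025 in the line labelled TRIM24-KO, none of them called. Without the library rich in CT010467.1 the latter became 0.30, called for B1_Mm, 0.21 and 0.18. With all libraries they were 0.89, 0.73 and 0.70 in line 2 and 1.11, 0.88 and 0.85 in TRIM33-KO, all called.

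The other 12 B1 and PB1 subfamilies changed little, and their median turned from above to below 0 with the scaling in line 2, TRIM33-KO and the lines labelled DUXBL-KO and TRIM24-KO. Their median log2 fold changes were -0.04, 0.02, 0.23, 0.21, 0.07 and 0.34 in WT, the line labelled DUXBL-KO, line 1, line 2, the line labelled TRIM24-KO and TRIM33-KO, with 0, 0, 10, 8, 0 and 12 called higher. Over all repeats, 5.1%, 18.2%, 54.2%, 68.6%, 49.3% and 75.6% were called higher in that order. The medians of these 12 relative to all counts were -0.14, -0.13, 0.08, -0.11, -0.45 and -0.25, with none called higher and 4 called lower in the line labelled TRIM24-KO. Without the libraries rich in CT010467.1, the last pair became -0.22, with 3 called lower, and -0.16, with 5. B1F, an older B1 subfamily, stood at 822 and 802 CPM without DOX and 1059 and 1013 CPM with DOX in TRIM33-KO (0.35 ± 0.07, adjusted p = 5.82e-04). In the line labelled TRIM24-KO it was at 823 and 816 CPM without DOX and 822 and 920.0 CPM with DOX and overlapped between treatments. PB1D10, a proto-B1 subfamily, lay at 1051 to 1317 CPM without DOX and 1188 to 1531 CPM with it over the pLV2 libraries, and its log2 fold change in TRIM33-KO was 0.25. FAM, a fossil monomer with a mean of no more than 58 counts, rose in line 2 (1.64 ± 0.32) and TRIM33-KO (1.51 ± 0.33). Its values of 0.60 in line 1 and 0.89 in the line labelled TRIM24-KO were not called.

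The ratio of B1_Mm to B1F counts in a library was 0.900 and 0.882 without DOX and 2.37 and 2.15 with DOX in TRIM33-KO and 0.864 and 0.852 without DOX and 1.93 and 1.51 with DOX in line 2. It was 0.884 and 0.832 without DOX and 1.21 and 1.30 with DOX in the line labelled TRIM24-KO and 0.933 and 0.942 without DOX and 1.12 and 1.17 with DOX in line 1. Libraries with DOX were above those without it in each. In the line labelled DUXBL-KO the ratio was 0.857 and 0.813 without DOX and 1.05 and 1.04 with DOX, also apart. In WT it was 0.878 and 0.827 without DOX and 0.973 and 0.876 with DOX, and the ranges overlapped. The 6 entries named for mouse (3 of B2 and 3 of B1) were grouped after their values had been seen, so the group is a description with no test. The other 29 members had medians of -0.04, 0.03, 0.25, 0.25, 0.10 and 0.41 in the 6 lines, with 0, 0, 22, 21, 4 and 28 called higher. All repeats had 5.1%, 18.2%, 54.2%, 68.6%, 49.3% and 75.6% called higher in the same lines.

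**Figure D3:**
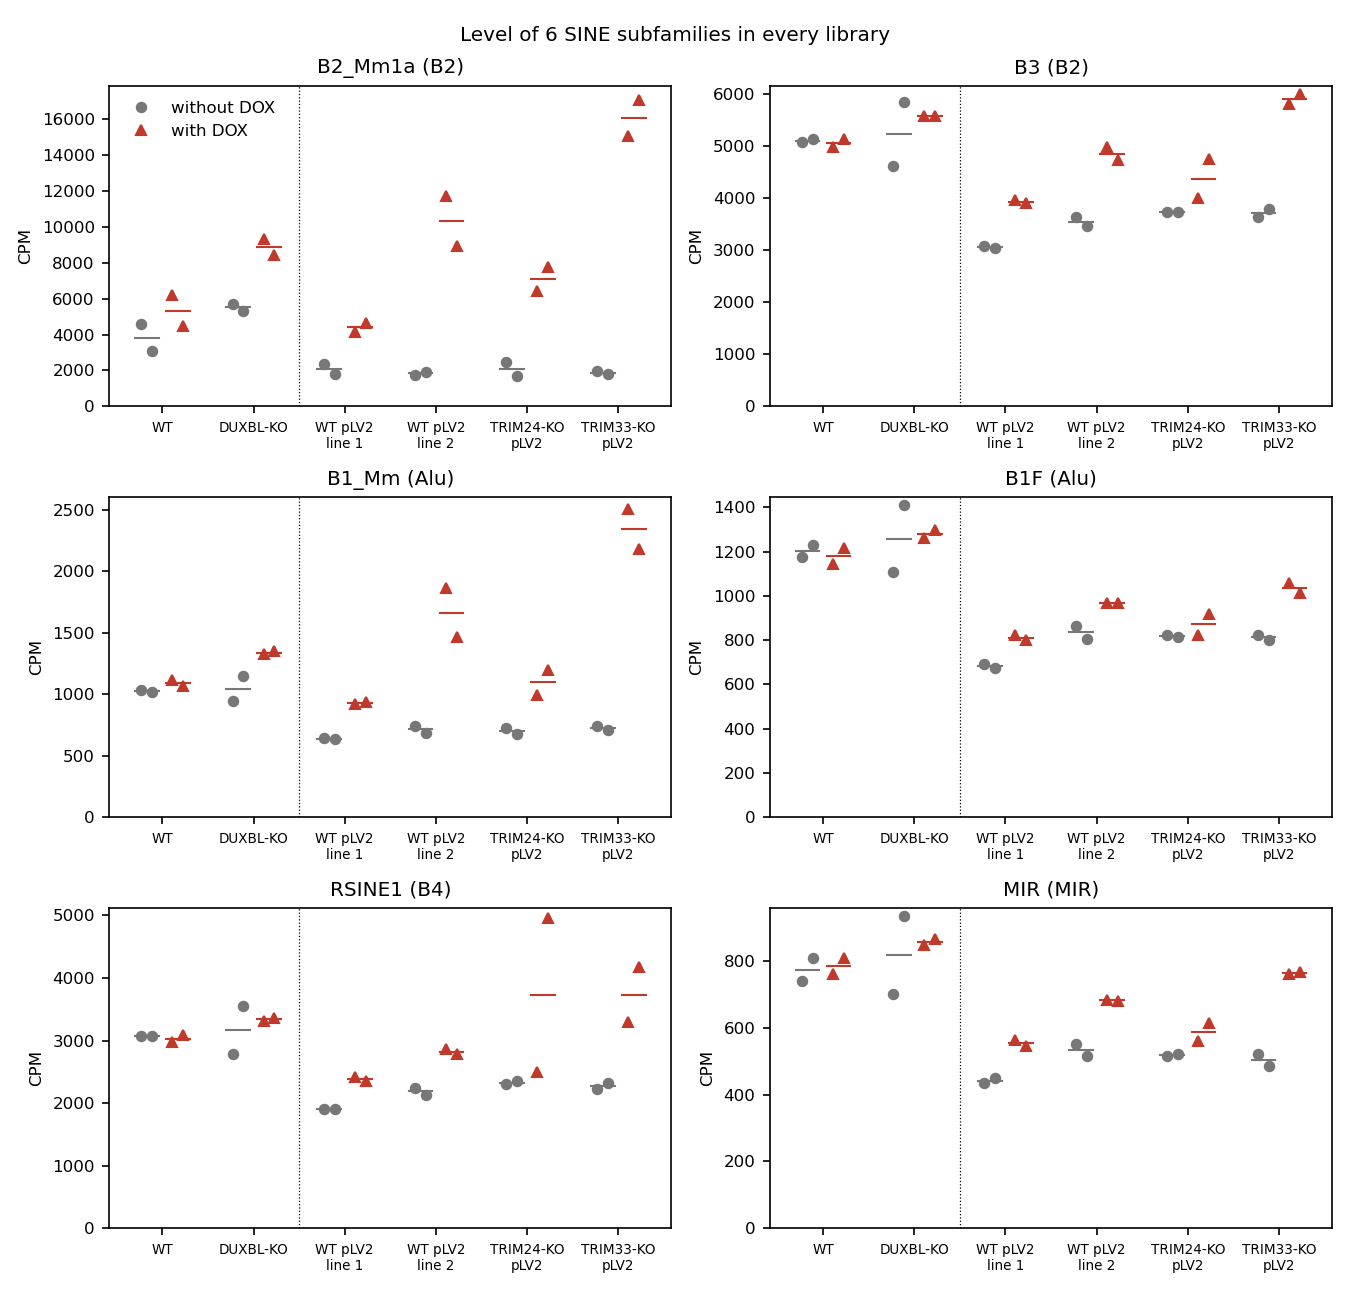
CPM of 6 SINE subfamilies (vertical) in each of the 24 libraries, by line (horizontal), with grey dots without DOX, red triangles with DOX, bars for group means, and a dotted line between the 2 sets, which were scaled apart. B2_Mm1a reached 15074 and 17078 CPM with DOX in TRIM33-KO, whereas MIR there reached 760.3 and 767 CPM.

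In the B4 family, RSINE1 differed between the 2 libraries of a group. In the line labelled TRIM24-KO it stood at 2304 and 2352 CPM without DOX and 2501 and 4966 CPM with DOX, so that replicate 2 with DOX stood above every other library of the set. The log2 fold change of 0.68 ± 0.19 (adjusted p = 0.0196) became 0.11 without that library, and B4, called at 0.46, became 0.12. Both calls were also lost without either library without DOX, and scaled to all counts B4 was -0.11. In TRIM33-KO, RSINE1 stood at 2230.4 and 2317 CPM without DOX and 3297 and 4171 CPM with DOX (0.72 ± 0.19, adjusted p = 0.00740), again with replicate 2 higher. The ratio of RSINE1 to B4A counts was 1.20 to 1.29 in 22 libraries, 2.18 in the first of these 2 and 1.53 in the second. They are the libraries with CT010467.1 at 30.4% and 12.9% of gene counts, and the part of this in the RSINE1 values was not tested.

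Elsewhere the B4 family rose modestly relative to gene counts. None of its 4 members was called in any line when scaled to all counts, its median was 0.05 in line 2 and 0.02 in TRIM33-KO, and its summed level in TRIM33-KO was -0.02 (log2). In line 2, RSINE1 stood at 2241 and 2136 CPM without DOX and 2868 and 2779 CPM with DOX (log2 0.37, not called, adjusted p = 0.172). B4A, at 1499 to 1858 CPM without DOX and 1847 to 2723 CPM with it in the pLV2 set, rose by 0.56 in TRIM33-KO. ID_B1, a fusion of ID-like and B1-like parts, rose by 0.37 there, with 2247 and 2156 CPM without DOX and 2874 and 2810.2 CPM with DOX. Called B4 members were 2, 3, 2 and 4 of 4 in line 1, line 2, the line labelled TRIM24-KO and TRIM33-KO. Over all repeats, 54.2%, 68.6%, 49.3% and 75.6% were called higher in these lines. The TRIM24-KO calls were RSINE1 and B4. None of the 4 B4 members was called in the first set.

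MIR subfamilies, remnants of a family that was active before placental mammals diverged, rose by small amounts relative to gene counts. None was called in any line when scaled to all counts, and the medians were then 0.14, 0.01, -0.39 and -0.03 in line 1, line 2, the line labelled TRIM24-KO and TRIM33-KO, the last pair becoming -0.15 and 0.06 without the libraries rich in CT010467.1. All 4 were called higher in line 1, line 2 and TRIM33-KO, and 0 of 4 in the line labelled TRIM24-KO. Over all repeats the shares called higher were 54.2%, 68.6%, 75.6% and 49.3% in the same order. MIR itself stood at 522 and 486 CPM without DOX and 760.3 and 767 CPM with DOX in TRIM33-KO (0.60 ± 0.07, adjusted p = 2.12e-06). It stood at 552 and 515 CPM without DOX and 682 and 681 CPM with DOX in line 2 (0.35 ± 0.07) and at 433 and 449.8 CPM without DOX and 563 and 544 CPM with DOX in line 1 (0.33 ± 0.07). The groups were apart in each of these 3 lines. MIRb, the best-counted member, and MIRc rose by 0.62 and 0.53 in TRIM33-KO, and MIR3 by 0.49. In the line labelled TRIM24-KO, MIR was at 516 and 521 CPM without DOX and 559 and 614 CPM with DOX (log2 0.18, adjusted p = 0.0864).

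Of the 4 ID subfamilies, which derive from a transfer RNA gene through Bc1, 3, 2, 0 and 4 were called higher in line 1, line 2, the line labelled TRIM24-KO and TRIM33-KO. The shares of all repeats called higher were 54.2%, 68.6%, 49.3% and 75.6% there. ID4_, at 325 to 409 CPM without DOX in the pLV2 set, had log2 fold changes of 0.33, 0.27, 0.11 and 0.42 in these lines. With all counts as the total, none of the 4 was called, and the family's medians were 0.12, -0.08, -0.40 and -0.22. As a percent of all counts, summed ID counts went from 0.0763% to 0.0839% in line 1, from 0.0989% to 0.0932% in line 2, from 0.0904% to 0.0674% in the line labelled TRIM24-KO and from 0.0954% to 0.0818% in TRIM33-KO. The log2 ratios of the last pair, -0.42 and -0.22, were -0.20 and -0.14 without the libraries rich in CT010467.1. The Deu family holds 2 ancient subfamilies. AmnSINE2, at 2.96 to 11.1 CPM in the pLV2 libraries, rose in all 4 pLV2 lines, by 0.73, 1.03, 0.88 and 1.49, of which line 2 (0.72) and TRIM33-KO (0.90) were also called when scaled to all counts. AmnSINE1 was called in none, and its log2 fold change in TRIM33-KO was 0.04, the lowest among members there. It fell there by 0.55 (adjusted p = 0.0219) when scaled to all counts.

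Summed by family, B2 counts took a larger part of SINE counts with DOX. In TRIM33-KO, B2 held 34.6% ± 0.0485 (SD, n = 2) of SINE counts without DOX and 56.0% ± 0.744 with it, and in line 2 it went from 34.1% ± 0.890 to 51.7% ± 2.34. MIR went from 4.40% to 2.69% in TRIM33-KO. The log2 ratio of summed CPM with DOX to that without was 1.99, 0.84, 0.57 and 0.58 for B2, Alu, B4 and MIR in TRIM33-KO. In line 2 these ratios were 1.51, 0.56, 0.33 and 0.34, and in line 1 they were 0.70, 0.33, 0.30 and 0.29. The line labelled TRIM24-KO had 0.96, 0.24, 0.37 and 0.14, and its B4 value was 0.068 without replicate 2 with DOX and 0.62 without replicate 1 with DOX. WT had 0.22, -0.01, -0.02 and 0.01, and the line labelled DUXBL-KO had 0.44, 0.11, 0.06 and 0.05.

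B2 had the largest of the 4 ratios in each line. Direction depended on the scaling for the smaller ones. As a percent of all counts, with repeats in the total, log2 fold changes moved down by 0.10 to 0.59. On that scale the summed Alu, B4 and MIR values in the line labelled TRIM24-KO became -0.28, -0.19 and -0.38, and those of B4 and MIR in TRIM33-KO became -0.02 and -0.01. One library moved these values. Alu held 1.17% and 1.15% of all counts without DOX and 1.12% and 0.80% with DOX in the line labelled TRIM24-KO, the last in replicate 2, where CT010467.1 was at 30.4% of gene counts. Without that replicate the Alu, B4 and MIR values were -0.06, -0.13 and -0.13, and without replicate 2 with DOX of TRIM33-KO those of B4 and MIR there were 0.01 and 0.08. B2 stayed positive on it, at 0.55, 1.19, 0.43 and 1.40 in line 1, line 2, the line labelled TRIM24-KO and TRIM33-KO.

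The classes LTR, LINE and DNA had higher medians than SINEs in each line. The median log2 fold change of LTR elements was 1.48 in TRIM33-KO and 1.19 in line 2, and that of LINEs was 1.19 and 0.90, against 0.48 and 0.27 for SINEs. DNA transposons, with medians of 0.55 and 0.34, were nearest. The B2 family, with a median over its 5 members of 1.96 in TRIM33-KO and 1.52 in line 2, exceeded the LTR and LINE medians in both. MERVL-int, the internal part of the MERVL retrovirus that DUX is known to switch on, rose by 9.49 in TRIM33-KO, 9.04 in line 2, 7.88 in the line labelled TRIM24-KO and 7.06 in line 1. It also rose in WT (6.83) and in the line labelled DUXBL-KO (7.39), the 2 lines in which 0 SINE subfamilies were called. The tests in those lines were less precise, with a common coefficient of variation of 17.6% in the first set against 8.73% in the pLV2 set. The 0 calls there do not show that a SINE response was absent. L1Md_T, a young LINE-1 subfamily, rose by 1.95 in TRIM33-KO, from 1191 and 1292 CPM to 3573 and 5998 CPM. It rose by 1.38 in line 2, where the call was lost without its replicate 2 without DOX (1.24, adjusted p = 0.0999) or its replicate 1 with DOX (1.20, adjusted p = 0.0901). In the line labelled TRIM24-KO it went from 1653 and 1831 CPM to 2357 and 10120.1 CPM, a fitted change of 1.84 that was 0.44 (adjusted p = 0.200) without replicate 2 with DOX, one of the 2 libraries rich in CT010467.1.

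**Figure D4:**
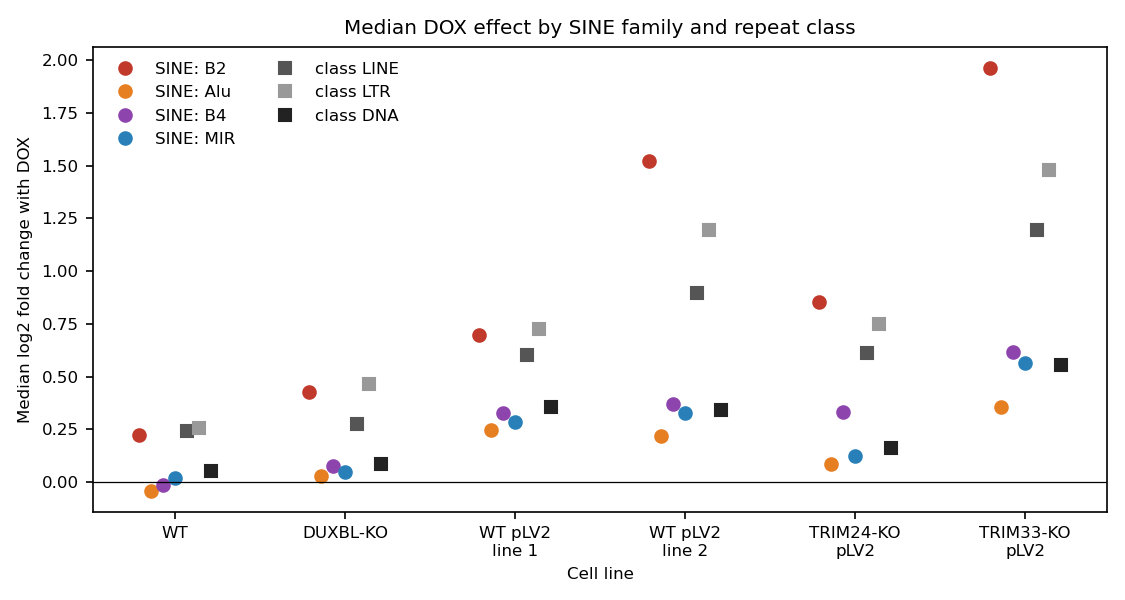
Median log2 fold change of DOX against no DOX (vertical) for the SINE families B2, Alu, B4 and MIR and for the classes LINE, LTR and DNA, by line (horizontal). B2 (1.96 in TRIM33-KO, 1.52 in line 2) lies above the LTR medians (1.48 and 1.19) in those 2 lines on the scale of gene counts, and MIR, B4 and Alu lie well below them.

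Whether the DOX response differed between lines was tested as an interaction, the fold change in a line less the fold change in the reference. In TRIM33-KO against the average WT pLV2 line, 6 of 35 members responded more, against 20.8% of all repeats, and none less. B2_Mm1a differed by 1.32 ± 0.20 (adjusted p = 0.00245). The others were B2_Mm1t (1.28, adjusted p = 0.00205), B2_Mm2 (0.85, adjusted p = 0.00465), B1_Mm (0.82, adjusted p = 0.00371), B1_Mus1 (0.67, adjusted p = 0.00536) and B1_Mus2 (0.69, adjusted p = 0.00545). These are the 6 entries named for mouse; the median over all 35 members was 0.21. On the scale of all counts, 0 of 35 were called, the 6 lay between 0.32 and 0.96 (B2_Mm1a, adjusted p = 0.0811), and the median over all members was -0.15. On that scale without the 2 libraries rich in CT010467.1, the same 6 were called, at 0.49 to 0.97. Against line 2 alone, 0 of the 6 passed, at log2 differences of 0.41 to 0.62 (adjusted p = 0.663 to 0.760), and without replicate 1 with DOX of TRIM33-KO, 4 remained.

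The WT pLV2 lines also differed from each other. Line 2 responded more than line 1 for 3 of 35 members (all repeats 6.11%), B2_Mm1a (1.41 ± 0.23, adjusted p = 0.00734), B2_Mm1t (1.35, adjusted p = 0.00624) and B2_Mm2 (0.82, adjusted p = 0.0251). B1_Mm was at 0.68 (adjusted p = 0.0516). B2_Mm1a (1.24, adjusted p = 0.0128) and B2_Mm1t (adjusted p = 0.0235) were also called when scaled to all counts. The count of 3 became 0 without replicate 1 without DOX of line 1, 1 without its replicate 1 with DOX, and at most 6. In the line labelled TRIM24-KO against both WT pLV2 lines, 0 of 35 were called by edgeR or DESeq2, with 4 at an unadjusted p under 0.05, and all repeats gave 0% higher and 1.14% lower. The line labelled DUXBL-KO, against WT, had 0 of 35 called by edgeR or DESeq2, with 0 at an unadjusted p under 0.05, and 0% of all repeats.

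Before induction, called differences between lines were of at most log2 0.31. Line 2 had 23 of 35 members above line 1 (all repeats 14.4% higher and 4.97% lower), by log2 0.21 to 0.31. The line labelled TRIM24-KO had 5 above the average of the WT pLV2 lines (all repeats 10.8% higher and 2.59% lower), AmnSINE1, B3, B3A, MIR3 and MIRc, by 0.16 to 0.24. TRIM33-KO had 1 (all repeats 7.56%), ID4_ at 0.17 (adjusted p = 0.0485). These counts moved with the reference, with single libraries and with the scaling. No member was called in any of these comparisons when scaled to all counts, although the median of line 2 against line 1 was then 0.35, against 0.25 as reported. Against line 1 alone they were 23 and 22, and against line 2 alone 1 and 0. Of 9 feeder fibroblast markers tested, 5 were higher and 1 lower in line 2 against line 1 (median 0.85), 1 and 3 in the line labelled TRIM24-KO and 6 and 0 in TRIM33-KO. Shares of all genes called higher and lower were, in the same order, 18.8% and 19.1%, 20.7% and 22.1%, and 12.5% and 10.8%. Of 4 endoderm markers, 1 was lower in line 2, 3 were higher in the line labelled TRIM24-KO (median 1.94) and none was called in TRIM33-KO. Of 10 pluripotency markers, 3 were higher and 5 lower in line 2, with the same numbers in the line labelled TRIM24-KO, against 2 and 3 in TRIM33-KO. The part of these cells in the SINE differences before induction was not tested. Leaving out any 1 library of the line labelled TRIM24-KO or of the WT lines gave 0 to 23 for it, with 0 lacking its replicate 1, and for TRIM33-KO the range was 0 to 6. The line labelled DUXBL-KO had 0 of 35 called against WT by edgeR or DESeq2 (3 at an unadjusted p under 0.05), and 0% of all repeats were called higher there, with 0.0388% of genes lower. Its 5 B2 members were all above WT, up to 0.53 for B2_Mm1a (adjusted p = 0.556), a difference that did not pass the test.

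Other transcripts made by RNA polymerase III rose in part. Of the 8 tested of 10 listed, 0, 0, 1, 5, 3 and 3 were called higher in WT, the line labelled DUXBL-KO, line 1, line 2, the line labelled TRIM24-KO and TRIM33-KO, and none lower. The shares of all genes called higher in these lines were 2.88%, 4.65%, 10.2%, 12.9%, 11.6% and 16.6%, and those called lower were 0.133%, 0.498%, 6.53%, 14.3%, 5.16% and 20.3%. Rmrp, one of the transcripts, has 2 overlapping entries with almost the same counts. Rn7sk, the RNA that holds an elongation factor inactive, stood at 7244 and 7989 CPM without DOX and 12833 and 11918 CPM with DOX in TRIM33-KO, a rise of 0.70 ± 0.07 (adjusted p = 7.07e-07). It rose in the other pLV2 lines too, by 0.26, 0.55 and 0.34 in line 1, line 2 and the line labelled TRIM24-KO. With all counts as the total, Rn7sk was 0.11, 0.24, -0.16 and 0.11 in line 1, line 2, the line labelled TRIM24-KO and TRIM33-KO, none of them called, and of the listed transcripts Rn7s1 alone was called higher, in line 2 (0.89), while Bc1 was called lower in TRIM33-KO (-0.64) and in the line labelled TRIM24-KO (-0.67), as was Rn7s2 in the latter (-0.64). Rn7s1, a gene for the signal recognition particle RNA from which B1 derives, rose in line 2 by 1.22 ± 0.37, with 2319 and 1452 CPM without DOX and 5209 and 3565 CPM with DOX. Rny1, a Y RNA, rose by 0.87, 0.99 and 0.82 in line 2, the line labelled TRIM24-KO and TRIM33-KO, and none of these passed relative to all counts (0.54, 0.44 and 0.22). Rn7s1 has near-identical copies, so its counts are uncertain.

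Relative to gene counts, genes of the polymerase III machinery changed little as a group. Of 30, the numbers called higher and lower were 0 and 0 in WT, 1 and 0 in the line labelled DUXBL-KO, 1 and 1 in line 1, 2 and 4 in line 2, 2 and 0 in the line labelled TRIM24-KO, and 2 and 8 in TRIM33-KO. Their median lay between -0.11 and 0.03. With all counts as the total, 1 of 30 was called higher in each line but WT, and 6, 13 and 26 lower in line 2, the line labelled TRIM24-KO and TRIM33-KO, where 22.7%, 36.2% and 56.9% of all genes were lower. Snapc3, a subunit of the complex that drives polymerase III genes of the U6 type rather than SINEs, rose most. It stood at 22.8 and 25.7 CPM without DOX and 108 and 109 CPM with DOX in TRIM33-KO (2.16 ± 0.09, adjusted p = 5.49e-12), and it was called in every line but WT, where the value was 0.67. Gtf3c6, a subunit of the factor that binds the B box, rose by 0.47, 0.42 and 0.78 in line 2, the line labelled TRIM24-KO and TRIM33-KO relative to gene counts, and was at 0.15, -0.09 and 0.19, not called, relative to all counts. Polr3gl, a polymerase III subunit, fell by 1.08 in TRIM33-KO, and Bdp1, an initiation factor subunit, fell by 0.40.

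Among 9 genes for proteins that bind SINE RNA, 0 were called in WT, the line labelled DUXBL-KO and the line labelled TRIM24-KO. In line 1, 1 fell, in line 2, 2 fell, and in TRIM33-KO 2 fell and 1 rose. With all counts as the total, 2, 5 and 8 of the 9 fell in line 2, the line labelled TRIM24-KO and TRIM33-KO, where 22.7%, 36.2% and 56.9% of all genes did, and none rose. Adar, which edits double-stranded RNA from inverted SINE pairs, fell by 0.35 in line 2 and 0.37 in TRIM33-KO. Srp9 and Srp14, the signal recognition particle subunits that bind B1 RNA, were not called in any line relative to gene counts. Relative to all counts both fell in TRIM33-KO, by 0.58 and 0.56, and Srp14 fell by 0.64 in the line labelled TRIM24-KO. Of 18 genes for proteins that repress SINE copies, 2 rose and 3 fell in line 1, 2 and 4 in line 2, 2 and 1 in the line labelled TRIM24-KO, and 4 and 7 in TRIM33-KO. None of the 18 was called in the first set. Relative to gene counts, 10.2%, 12.9%, 11.6% and 16.6% of all genes rose in these pLV2 lines, and 6.53%, 14.3%, 5.16% and 20.3% fell. The same shares apply to the 9 genes above. Adnp, whose protein sits in a complex that binds B2 copies, fell by 0.34, 0.50, 0.38 and 0.62 in the 4 pLV2 lines in that order. Trim28, a co-repressor of retrotransposons, rose there by 0.24, 0.32, 0.40 and 0.50 relative to gene counts, and was at 0.09, -0.00, -0.09 and -0.09 relative to all counts, none of them called. On the latter scale Adnp was at -0.49 (not called), -0.82, -0.88 and -1.21. There 0, 5, 10 and 14 of the 18 repressor genes were lower in these lines, against 2.35%, 22.7%, 36.2% and 56.9% of all genes.

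Markers of other cell types were few or low, apart from Vim. Feeder fibroblast markers, of which 9 of 17 were tested, summed to 61.0 to 210 CPM over the 24 libraries, with 4 to 8 of the 17 at 0 per library. Vim, at 25.4 to 205 CPM, was the highest of them in every library, so the sum rests largely on 1 gene. Postn, Lum and Fap were at 0 in 23 of 24 libraries. Counted in every library, beside Vim, were Thy1 (4.79 to 20.8 CPM) and Fbn1 (2.54 to 12.6 CPM). So were Col1a1, Pdgfra, Pdgfrb, Tagln and Loxl1, at no more than 8.34 CPM. Of the 9, 2, 2, 2 and 3 were called higher and 0, 2, 1 and 1 lower in line 1, line 2, the line labelled TRIM24-KO and TRIM33-KO. The 5 endoderm markers summed to 0.969 to 18.7 CPM, and of 4 tested 1 was called lower in line 2 and 1 in TRIM33-KO. With all counts as the total, 2, 0, 1 and 0 feeder markers were higher and 0, 2, 3 and 3 lower in the 4 pLV2 lines. On that scale 0, 2, 1 and 1 endoderm markers were lower in the same order, and none was higher. Pluripotency markers were called lower for 2, 6, 5 and 6 of 10 genes in these pLV2 lines and higher for 1, 1, 0 and 1, and 0 in the first set. With all counts as the total these numbers were 1, 7, 8 and 9 lower and none higher, with 1 lower in the line labelled DUXBL-KO. The shares of all genes called higher in the pLV2 lines on that scale were 6.69%, 7.99%, 6.68% and 8.31%, and those lower 2.35%, 22.7%, 36.2% and 56.9%, beside 10.2%, 12.9%, 11.6% and 16.6% higher and 6.53%, 14.3%, 5.16% and 20.3% lower relative to gene counts. The part of these cells in the SINE values was not tested.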

How the data were processed

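Total RNA of 24 libraries was depleted of ribosomal RNA and read with a directional kit as 75 bp pairs, per the labels' protocols. The submitters' processing notes name bcl2fastq 2.20.0, cutadapt 1.18, STAR 2.7.6a and mm10; the counting tool, its annotation, its use of strand and its treatment of reads that match many copies are not given in the sources used here, and the last bears on every subfamily count. The deposited values are whole-number counts per gene and per repeat subfamily, made by the authors. Gene identifiers were matched to GENCODE M21, 54349 with version, 792 without, 346 not at all.

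The 2 sets were fitted apart with edgeR 4.0.16 (R 4.3.3, limma 3.58.1): genes and repeats in one table, filterByExpr by group, which all 35 SINE subfamilies passed in both sets, TMM factors and library sizes from genes, 1 mean per group, quasi-likelihood test, 2-sided, Benjamini-Hochberg over all features. In the fits, 18060 genes and 981 repeats (first set) and 18079 and 965 (pLV2) were tested. CPM uses the effective library sizes within a set, so levels are not compared between sets, nor, lacking lengths, between subfamilies. The script was tested on simulated data. Named with values were the 3 best-counted subfamilies of Alu, B2, B4 and MIR, the highest and lowest per line, and fixed gene lists; others named were chosen after their values were seen. Members and lists were chosen with earlier results of these data known. Alternatives were other scalings (among them library sizes from all counts with no TMM factors), filters, DESeq2 1.42.0, other references, a replicate block, and leaving out libraries. The Bc1 sequence was read from GENCODE M21.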

Additional observations from a re-analysis of the deposited data

Results flagged for a closer look

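The test of a difference in DOX response between lines singled out 9 values, on the log2 scale. In TRIM33-KO against the mean of both WT pLV2 lines, they were those of B1_Mm (0.82), B1_Mus1 (0.67), B1_Mus2 (0.69), B2_Mm1a (1.32), B2_Mm1t (1.28) and B2_Mm2 (0.85). In WT pLV2 line 2 against line 1, they were those of B2_Mm1a (1.41), B2_Mm1t (1.35) and B2_Mm2 (0.82). The counts were 6 and 3 of 35, against 20.8% and 6.11% of all repeats. Against line 2 alone, 0 of the 6 passed. Scaled to all counts, none of the 6 was called in TRIM33-KO, though the same 6 were without the 2 libraries rich in CT010467.1, and B2_Mm1a and B2_Mm1t were called in line 2. Both contrasts use the libraries of the WT lines. MERVL-int differed in the same direction, by 1.44 in TRIM33-KO and by 1.98 in line 2 against line 1.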

How the results depend on the processing

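Over all subfamilies, comparisons and alternatives, 7766 values kept their side of the threshold, 270 lost a call and 299 gained one. A further 65 were reversed, meaning a changed sign with a call in either of the settings compared. The 65 all arose when scaled to all counts, an alternative chosen after seeing the data. A reversed value need not be a called fall. With all libraries, 4 members were called lower for DOX in the line labelled TRIM24-KO and 1 in TRIM33-KO on that scale. With all libraries, 41 reversed values were, as log2 fold changes of DOX, B1F1 -0.11, B1F -0.10, B1_Mur1 -0.090, B1_Mur2 -0.10, B1_Mur3 -0.059, B1_Mur4 -0.035, ID4_ -0.043, ID -0.065, ID_B1 -0.11, MIR3 -0.020, MIRc -0.047, PB1D11 -0.096 and PB1D9 -0.14 in line 2, B1_Mus2 -0.025, B3 -0.30, B4 -0.11, PB1D10 -0.49, PB1D7 -0.51 and PB1D9 -0.48 in the line labelled TRIM24-KO, and AmnSINE1 -0.55, B1F1 -0.27, B1F2 -0.23, B1F -0.24, B1_Mur1 -0.18, B1_Mur2 -0.29, B1_Mur3 -0.14, B1_Mur4 -0.11, B3A -0.0063, B4A -0.031, ID2 -0.18, ID4 -0.26, ID4_ -0.17, ID -0.31, ID_B1 -0.22, MIR3 -0.10, MIRc -0.064, PB1 -0.36, PB1D10 -0.34, PB1D11 -0.24, PB1D7 -0.38 and PB1D9 -0.31 in TRIM33-KO. On the same scale without the 2 libraries rich in CT010467.1, 24 were, B1_Mur2 -0.24, B3 -0.10, B4 -0.083, PB1D7 -0.26 and RSINE1 -0.10 in the line labelled TRIM24-KO, and AmnSINE1 -0.43, B1F1 -0.19, B1F2 -0.12, B1F -0.12, B1_Mur1 -0.094, B1_Mur2 -0.21, B1_Mur3 -0.047, B1_Mur4 -0.00071, ID2 -0.13, ID4 -0.18, ID4_ -0.092, ID -0.20, ID_B1 -0.11, MIR3 -0.012, PB1 -0.28, PB1D10 -0.26, PB1D11 -0.13, PB1D7 -0.28 and PB1D9 -0.22 in TRIM33-KO. Each test rests on 2 libraries a group, and counts are low for FAM and AmnSINE2. Where a count or sum moved, the cause was not tested.

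Counts of SINE subfamilies called moved as follows. Scaled to all counts, the numbers called in either direction for DOX were 2 in line 1, 8 in line 2, 6 in the line labelled TRIM24-KO and 9 in TRIM33-KO (13 without the 2 libraries); the interaction of TRIM33-KO gave 0, and without DOX the line labelled TRIM24-KO, TRIM33-KO and line 2 gave 0 each. For DOX in WT, with no filter on low counts, the count was 2. For DOX in the line labelled DUXBL-KO it was 4 with no filter, 3 by DESeq2, 2 with only the groups compared and 4 adjusted over repeats alone. For DOX in the line labelled TRIM24-KO it was 6 without the 2 libraries rich in CT010467.1, an alternative chosen after seeing the data. The interaction of the line labelled TRIM24-KO gave 3 with no filter. That of TRIM33-KO gave 10 by DESeq2, 11 adjusted over repeats alone and 0 against line 2 alone. That of line 2 against line 1 gave 5 with RLE size factors and 6 with no filter, by DESeq2, with only the groups compared and adjusted over repeats alone. Without DOX, the line labelled DUXBL-KO gave 2 with no filter. Without DOX, the line labelled TRIM24-KO gave 16 with RLE size factors, 3 with repeats in the library sizes, 20 without CT010467.1, 16 with no filter, 19 by DESeq2, 22 with only the groups compared, 0 adjusted over repeats alone, 23 against line 1 and 1 against line 2. TRIM33-KO gave 5 without CT010467.1, 8 with no filter, 4 by DESeq2, 6 with only the groups compared, 0 adjusted over repeats alone, 22 against line 1 and 0 against line 2.

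Summed family levels, as log2 ratios of DOX to no DOX, moved with the scaling. As a percent of all counts, Alu was -0.11 in WT, 0.18 in line 1, 0.24 in line 2, -0.28 in the line labelled TRIM24-KO and 0.26 in TRIM33-KO. B2 was 0.28 in the line labelled DUXBL-KO and 0.55, 1.19, 0.43 and 1.40 in the pLV2 lines in that order. B4 was -0.12 in WT and 0.16, 0.0086, -0.19 and -0.023 in the pLV2 lines. MIR was -0.092 in WT and 0.15, 0.018, -0.38 and -0.012 in the pLV2 lines. Without CT010467.1, line 1 had 0.36 for Alu, 0.34 for B4 and 0.33 for MIR. With RLE size factors, TRIM33-KO had 0.92 for Alu, 2.06 for B2, 0.64 for B4 and 0.65 for MIR, and line 2 had 0.38 for B4 and 0.39 for MIR. With repeats in the library sizes, TRIM33-KO had 0.79 for Alu and 1.93 for B2, and line 2 had 0.27 for B4 and 0.28 for MIR.

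Leaving out 1 library at a time gave 6 to 13 calls for DOX in the line labelled TRIM24-KO, 11 to 18 in line 1 and 15 to 28 in line 2. It gave 0 to 1 for the interaction of the line labelled TRIM24-KO and 0 to 6 for that of line 2 against line 1. Without DOX it gave 0 to 23 for the line labelled TRIM24-KO and 0 to 6 for TRIM33-KO. The sums ranged from -0.031 to 0.28 (Alu), -0.11 to 0.25 (B4) and -0.13 to 0.26 (MIR) in the line labelled DUXBL-KO, and from 0.14 to 0.34, 0.068 to 0.62 and 0.069 to 0.20 in the line labelled TRIM24-KO. They ranged from 0.51 to 0.64 (B4) and 0.51 to 0.65 (MIR) in TRIM33-KO, from 0.30 to 0.35 (Alu) and 0.28 to 0.33 (B4) in line 1, from 1.36 to 1.66 (B2) and 0.29 to 0.38 (MIR) in line 2, and from -0.030 to 0.013 (Alu) in WT.

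The samples share only a replicate number. Deviations of same-numbered libraries from their group means correlated at 0.47 in WT, 0.66 in the line labelled DUXBL-KO, 0.02 in line 1, 0.28 in line 2, 0.18 in the line labelled TRIM24-KO and 0.09 in TRIM33-KO, over 2 numbers each. With the replicate number as a block, the count was 3 for DOX in the line labelled DUXBL-KO and 0 for TRIM33-KO without DOX, and every other count of calls stayed within 1.5 times its value.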
